A study of Mus musculus with 36 samples.

Results

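Oxidative phosphorylation is carried out by 5 protein complexes of the inner mitochondrial membrane. Complexes I, III and IV pass electrons from NADH to oxygen and pump protons, complex II (succinate dehydrogenase) feeds in electrons from the citric acid cycle without pumping, and complex V (ATP synthase) uses the proton gradient to make ATP. Most subunits are encoded in the nucleus, are made in the cytosol and are imported. Neurons depend on this pathway for the ATP that ion pumping and synaptic transmission consume. Several subunits of complex IV exist as a broadly expressed form and a form best known from heart and skeletal muscle, lung or testis.

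The nuclear subunit genes of the pathway were taken from the gene table by symbol. The rule took the Nduf genes with the letters a, b, c, s or v and a digit, and the 4 Sdh genes. It also took all symbols that start with Uqcr, with Cox4 to Cox8, or with Atp5. Symbols that hold -ps, a mark of pseudogenes, were left out, and no other screen for pseudogenes was made. This gave 85 of the 19025 genes in the table. Of these, 37 belong to complex I, 4 to complex II, 8 to complex III, 19 to complex IV (Ndufa4 and Ndufa4l2 are counted there) and 17 to complex V. The symbol rule also takes in Cox7a2l, which is known as a factor that joins complexes III and IV into supercomplexes. Ndufb4b and Ndufb4c are close copies of Ndufb4, and how their shared reads were divided is not given in the sources used here. The mitochondrially encoded subunits were not analysed here.

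The libraries came from brain tissue of C57 mice, 6 to 7 weeks old. The 6 regions carry the labels VTA, SN, STR, Nac, PFc and HP, and each has 3 libraries from wild-type mice (WT) and 3 from knock-in mice (KI), 36 in all. The KI mice carry a change in Maoa, the gene of the enzyme monoamine oxidase A, which the series title names by rs1137070 and calls synonymous, with less Maoa transcription and translation. No other allele or treatment is given. Nothing in the labels ties the 3 libraries of a group to different mice. Every p-value below therefore rests on variation among libraries, part or all of which may be technical.

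Total estimated counts were 15145631 to 18863503 per library. Maoa did not check the labels: its level was 34.0 to 78.0 CPM (a count as a share of its library, after TMM normalisation) in WT and 37.7 to 97.4 CPM in KI, and in 0 of 6 regions was every KI library below every WT library, while in 3 (HP, VTA and STR) every KI library was above. WT and KI below therefore mean libraries labelled so. In 8 libraries (WT Nac 2, WT VTA 3, KI HP 2, KI Nac 1, KI Nac 2, KI SN 1, KI SN 2 and KI STR 3) the markers of the labelled region were below the midpoint between the median of libraries labelled with that tissue and the median of the rest, and the counts and medians that these libraries move are also given without them. KI PFc 1 stayed above that midpoint, but its striatal markers were higher than its cortical ones (mean log2 level 7.32 against 5.32). PFc is also given without it. Of the 8, WT VTA 3, KI HP 2 and KI SN 2 were highest in striatal markers (8.34, 8.95 and 8.97). WT Nac 2 and KI Nac 1 were highest in midbrain ones (5.25 and 6.59), KI Nac 2 in hippocampal (6.08) and KI STR 3 in thalamic ones (6.24). KI SN 1 was nearly level in cortical, hippocampal and striatal ones (3.97 to 4.10).

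The promoters of 4 complex IV genes are shown because they set broadly expressed genes beside tissue forms whose levels are far lower: Cox6a1 and Cox6b1 encode the broadly expressed forms of 2 small subunits, Cox6b2 the form known from testis, and Cox8b the form known from heart and muscle. Each line holds the 250 bases before the RefSeq start in GRCm38.p6, 5′ to 3′ on the gene's strand, which is the minus strand for all 4. Capitals mark matches to GCGCA followed by any base (N) and GCGC, the core bound by nuclear respiratory factor 1 (NRF1), and to CCGGAAG, a core bound by ETS factors such as GABP, on either strand. The windows are chr5:115348959-115349208 for Cox6a1, chr7:30626115-30626364 for Cox6b1, chr7:4753095-4753344 for Cox6b2 and chr7:140900447-140900696 for Cox8b.
Cox6a1: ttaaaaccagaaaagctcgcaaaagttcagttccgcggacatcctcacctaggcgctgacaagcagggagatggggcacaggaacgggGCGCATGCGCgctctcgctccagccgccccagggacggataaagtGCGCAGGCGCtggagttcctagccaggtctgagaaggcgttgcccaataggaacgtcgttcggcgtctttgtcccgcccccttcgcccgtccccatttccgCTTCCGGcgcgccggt
Cox6b1: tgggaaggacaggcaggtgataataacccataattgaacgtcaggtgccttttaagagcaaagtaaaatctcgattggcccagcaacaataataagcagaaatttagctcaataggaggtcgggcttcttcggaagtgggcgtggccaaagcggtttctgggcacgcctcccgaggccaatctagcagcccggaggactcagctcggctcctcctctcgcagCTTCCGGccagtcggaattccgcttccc
Cox6b2: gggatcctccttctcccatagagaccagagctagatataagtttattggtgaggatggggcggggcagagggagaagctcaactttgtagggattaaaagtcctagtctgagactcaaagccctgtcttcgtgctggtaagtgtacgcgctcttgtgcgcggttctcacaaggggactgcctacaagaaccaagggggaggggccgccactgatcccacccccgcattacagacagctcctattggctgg
Cox8b: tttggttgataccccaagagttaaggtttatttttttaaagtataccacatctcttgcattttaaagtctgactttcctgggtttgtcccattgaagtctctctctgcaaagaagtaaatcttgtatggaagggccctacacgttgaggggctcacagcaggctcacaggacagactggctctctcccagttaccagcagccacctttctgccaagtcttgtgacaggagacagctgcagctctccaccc
The Cox6a1 window held 2 NRF1 matches, which begin 162 and 117 bases before the start, and an ETS match that begins 16 bases before it. The Cox6b1 window held an ETS match that begins 28 bases before the start. The letters of neither motif, nor of AAGATGGC, a core bound by YY1, were found in the Cox6b2 and Cox8b windows.

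RefSeq windows of 300 bases (250 before and 50 after the start) were at hand for 69 of the 85 genes, 74 windows in all. The NRF1 motif was found in 24.3% of these windows against 4.6% of all 32851 windows of that length, in 17 of the 69 genes. Among them were Atp5g2 and Atp5g3, which encode the c subunit of the ATP synthase rotor, and Sdha, the flavoprotein of complex II. CCGGAAG was found in 23.0% of the windows against 8.86% of all, also in 17 genes, among them Cox8a, Atp5md and Sdhb. AAGATGGC was found in 13.5% against 2.75%, in 10 genes. Of the 69 genes, 38 had at least 1 of the 3 motifs and 31 had none. Among the broadly expressed complex IV genes with a window, Cox6a1, Cox6b1 and Cox8a had a match. Cox5a, Cox5b, Cox7a2, Cox7a2l, Cox7b, Cox7c and Ndufa4 had none. The printed windows therefore do not stand for the broadly expressed genes of that complex. These are matches of letters and not measured sites.

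Levels of different genes were compared as TPM (a share of all transcripts that divides by transcript length). Over the 36 libraries, 76 of the 85 genes averaged at least 100 TPM and 20 averaged at least 1000 TPM. Together the 85 genes took 0.983% to 2.13% of the counts of a library and 4.68% to 7.87% of its TPM. Complex IV held the most abundant gene, Cox4i1, which encodes the ubiquitous form of subunit 4, at 3064 ± 521 TPM (SD, n = 36). It was followed by Cox6c at 2387 ± 485, Cox8a at 2350 ± 372 and Cox7c at 2259 ± 283 TPM, all small subunits of the same enzyme. Among genes above 100 TPM, the median level was 1798 TPM in complex IV, 1073 in complex V, 482 in complex III, 401 in complex I and 270 in complex II.

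**Figure D1:**
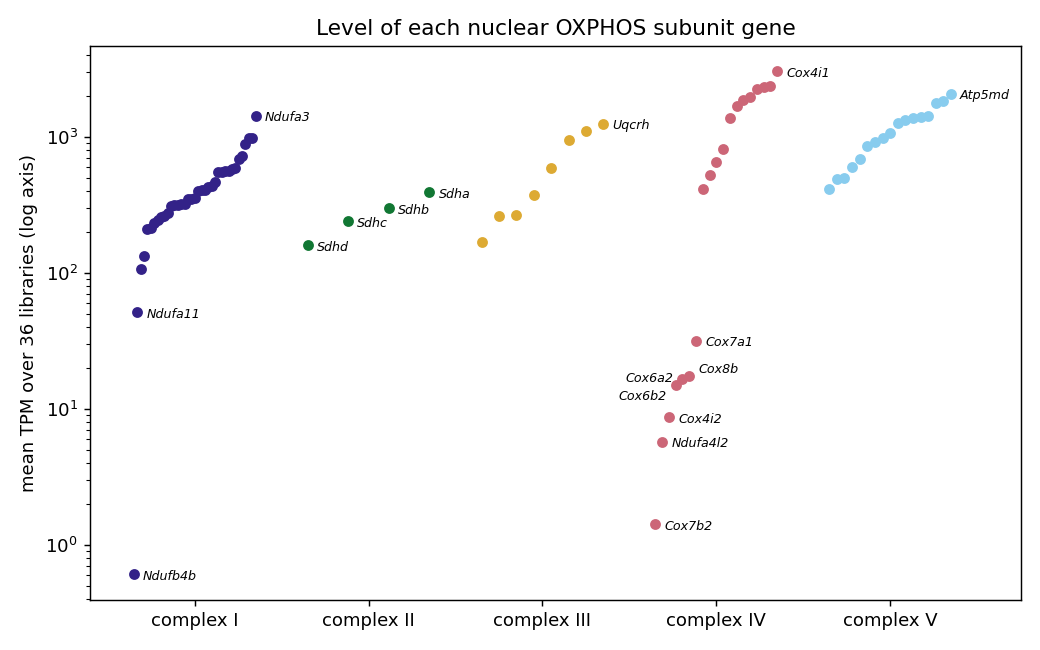
Mean TPM over 36 libraries (log axis) of each of the 85 genes, one point per gene, ordered by level within each complex. Most points lie above 100 TPM, and the low points of complex IV are Cox7a1, Cox8b, Cox6a2, Cox6b2, Cox4i2, Ndufa4l2 and Cox7b2.

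The 4 Sdh genes fell in the order Sdha at 394 ± 52.7 TPM, Sdhb (the iron-sulfur subunit) at 300.3 ± 34.2, Sdhc at 239.5 ± 41.1 and Sdhd at 160 ± 18.4, the last 2 being the membrane anchors (SD, n = 36). The ranges of mean ± SD of Sdhb and Sdhc overlapped, and those of Sdha and Sdhd overlapped no other. The 3 genes for the c subunit of complex V, which share a mature protein, were uneven: Atp5g3 averaged 1431 ± 300 TPM, Atp5g1 488 ± 83.1 and Atp5g2 412 ± 42.6, and the ranges of mean ± SD of the last 2 overlapped. In complex IV each broadly expressed gene stood far above its tissue form. Cox8a was at 2350 TPM and Cox8b at 17.4, Cox6a1 at 1889 and Cox6a2 at 16.5, Cox6b1 at 1708 and Cox6b2 at 15.0, and Cox4i1 at 3064 and Cox4i2, the lung form, at 8.68 TPM. Cox7a2 was at 652 TPM against 31.7 for Cox7a1, Cox7b at 417 against 1.41 for Cox7b2, and Ndufa4 at 1990 against 5.71 for Ndufa4l2, a gene known for its response to low oxygen. Ndufb4b was close to 0, with counts in 11 of 36 libraries.

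The first question was whether the genes differ between regions. In the 18 WT libraries, 83 of the 85 genes passed the filter on low counts, and 48 of the 83 differed between regions at an adjusted p under 0.05 (edgeR's quasi-likelihood F test, Benjamini-Hochberg over all 15094 genes tested). Over all genes tested 48.0% did, so the share among the 83 was close to the background. By complex, 25 of 36 tested genes were called in complex I, 1 of 4 in II, 3 of 8 in III, 11 of 18 in IV and 8 of 17 in V. The smallest adjusted p was that of Cox8b (3.66e-05), followed by Cox6b2 (0.000559) and Sdhc (0.001). In complex I it was smallest for Ndufa3 (0.00168) and Ndufb10 (0.00186), both of the membrane arm, in complex III for Uqcrb (0.00232) and Uqcrh (0.00622), and in complex V for Atp5g1 (0.00408) and Atp5h (0.00761). The count was 2 without the WT libraries numbered 1 and 6 without those numbered 2. It was 73 without WT Nac 2 and WT VTA 3, where 70% of all genes were called. Here and below, no share over all genes is given for fits without numbered libraries or for DESeq2 between regions. Those counts alone therefore do not single out the family.

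WT PFc had the lowest levels. Against the mean of the other 5 regions, 82 of 83 genes were lower in WT PFc, with a median log2 difference of -0.50 against -0.02 over all genes tested. Of the 83, 52 fell at an adjusted p under 0.05 and 0 rose, while 12.4% of all genes tested fell. The proximal membrane arm of complex I had 7 of 9 genes called and a median of -0.62, the distal arm 8 of 10 and -0.56, the NADH-binding N module 7 of 10 and -0.52, and the quinone-binding Q module 5 of 6 and -0.45. Ndufa3, a small accessory subunit, was at 39.0, 51.6 and 45.5 CPM in the 3 WT PFc libraries, against 64.7 to 111 CPM in WT Nac, STR, SN and VTA. The WT PFc libraries thus lay below every library of those 4 regions, and WT HP, at 48.7 to 65.1 CPM, overlapped both. The difference was -0.75 (SE 0.15, adjusted p = 0.0021). Sdhc was at 71.4, 84.8 and 73.6 CPM in WT PFc and at 105 to 153 CPM in those 4 regions, again without overlap, a difference of -0.55 (SE 0.11, adjusted p = 0.00244). Uqcrb, a small subunit of complex III, differed by -0.59 (SE 0.12), Ndufb10 by -0.68 (SE 0.14), Atp5g1 by -0.65 (SE 0.14), Atp5h, of the stator stalk of complex V, by -0.55 (SE 0.14) and Uqcrh, the hinge protein, by -0.55 (SE 0.16), all called.

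WT HP was next. There 82 of 83 genes were lower than in the other 5 regions, with a median of -0.29 against -0.03 over all genes, and 15 fell while 0 rose, against 16.7% of all genes that fell, so the count is near the background. Sdhc had the smallest p, with 94.4, 80.2 and 76.5 CPM in the 3 libraries and a difference of -0.42 (SE 0.11, adjusted p = 0.0089). Uqcrh followed at -0.55 (SE 0.16, adjusted p = 0.0158). Leaving out the WT libraries numbered 1, or those numbered 2, left 0 called in HP, and 36 were called, all lower, without WT Nac 2 and WT VTA 3, where 21.9% of all genes fell. For PFc the counts were 0 without those numbered 1 and 23 without those numbered 2, and 72 without WT Nac 2 and WT VTA 3, all lower, where 21.4% of all genes fell. Oligodendrocyte markers were also lowest in these 2 regions: the sum of 7 of them, none at 0 in any library, was 2131 to 2856 CPM in WT HP, 2692 to 4063 CPM in WT PFc and 5560 to 11890 CPM in the other WT regions. Their part in the result was not tested. For WT Nac the edgeR count was 0 of the 83 (1.20% of all genes, in either direction) and the DESeq2 count was 0, while 1 gene had p under 0.05 before adjustment. For WT SN both counts were 0 as well (7.91% of all genes by edgeR), and 5 genes had p under 0.05 before adjustment.

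At the other end were WT STR and WT VTA. In WT STR 81 of 83 genes were higher than in the other regions, with a median of 0.25 against 0.01 over all genes, and 15 rose and 0 fell, against 12.6% of all genes that rose. The STR count was 3 without the WT libraries numbered 1 and 5 without those numbered 2, and it was 19 without WT Nac 2 and WT VTA 3, where 18% of all genes rose. In WT VTA 78 of 83 were higher, with a median of 0.31 against 0.02, but 4 rose at the threshold, against 4.45% of all genes. These were Cox7a2l at 0.47 (SE 0.13, adjusted p = 0.044), Ndufa3 at 0.47 (SE 0.14), Ndufa2, of the N module, at 0.56 (SE 0.16) and Uqcrh at 0.51 (SE 0.15). WT VTA 3, which lacked the midbrain markers, had lower levels than its neighbours: Cox6c was at 326, 465 and 245 CPM in WT VTA 1, 2 and 3. No gene was called without the WT libraries numbered 1 or 2, and 28 were without those numbered 3. Without WT Nac 2 and WT VTA 3, 60 genes were called in VTA, 59 of them higher, where 19.6% of all genes rose.

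In complex IV, 3 genes (Cox8b, Cox6a2 and Cox6b2) stood higher in every WT STR library than in any other WT library, and Cox7a1 was also called higher in STR. Cox8b was at 4.6, 7.65 and 4.26 CPM in the 3 WT STR libraries and at 0.0560 to 0.904 CPM in the other 15 WT libraries. No WT library of another region reached the STR range, and the log2 difference was 4.42 (SE 0.41, adjusted p = 3.14e-06). Cox6a2, the muscle form of subunit 6a, was at 7.39, 8.06 and 9.46 CPM in WT STR and at 0.588 to 3.16 CPM elsewhere, again without overlap, a difference of 2.26 (SE 0.33, adjusted p = 0.000197). Cox6b2 was at 4.6, 9.56 and 5.73 CPM against 0.449 to 3.38 CPM, without overlap, a difference of 2.16 (SE 0.29, adjusted p = 1e-04). Cox7a1, the muscle form of subunit 7a, was at 3.89, 3.93 and 3.84 CPM in WT STR and reached 3.97 CPM in WT VTA and 3.83 CPM in WT SN, so its groups overlapped, and the difference was 1.33 (SE 0.35, adjusted p = 0.0126, or 0.0527 with the gene length offset described below). Even in WT STR these genes stayed below their broadly expressed partners: per length, Cox8b averaged 93.3 ± 29.7 TPM and Cox6a2 40.0 ± 8.93 TPM (SD, n = 3). Further genes called higher in STR were Atp5g1 at 0.57 (SE 0.13, adjusted p = 0.00461), Uqcrb at 0.42 (SE 0.11) and Sdhc at 0.37 (SE 0.10).

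The same 4 genes were looked at in the KI libraries, which the WT fit did not use. Cox8b was at 3.3, 3.41 and 1.41 CPM in KI STR and at 0 to 1.39 CPM in the other 15 KI libraries. Cox6a2 was at 6.65, 5.55 and 11.7 CPM in KI STR, where the lowest library lay below the highest of KI PFc (6.14 CPM) and of KI SN (5.89 CPM). Cox6b2 was at 4.01, 4.01 and 2.82 CPM in KI STR and at most 2.92 CPM elsewhere. Cox7a1 was at 2.64, 1.98 and 3.17 CPM in KI STR, and overlapped KI VTA (2.6 to 3.16 CPM) and KI Nac (0.559 to 3.47 CPM). In the F test over the 6 regions of KI, Cox8b (adjusted p = 0.0204), Cox6a2 (0.0279) and Cox6b2 (0.0391) were called and Cox7a1 was not (0.0633). STR libraries also carried markers of the choroid plexus, a tissue of the ventricle wall. All 6 listed markers (Ttr, Kcne2, Folr1, Clic6, Prlr and Sostdc1) were above 0 in every library, and their summed level was 10810 to 16160 CPM in WT STR, 3568 to 10410 CPM in KI STR and 12.9 to 3044 CPM elsewhere. The 2 libraries with the lowest sum in KI STR and the highest outside STR, KI STR 3 and KI SN 1, had 1.41 and 1.39 CPM of Cox8b. Thalamic markers were high in STR as well, with a mean log2 level of 5.35 to 6.70 in its 6 libraries and at most 5.18 elsewhere. The part of these tissues in the levels of the 4 genes was not tested.

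**Figure D2:**
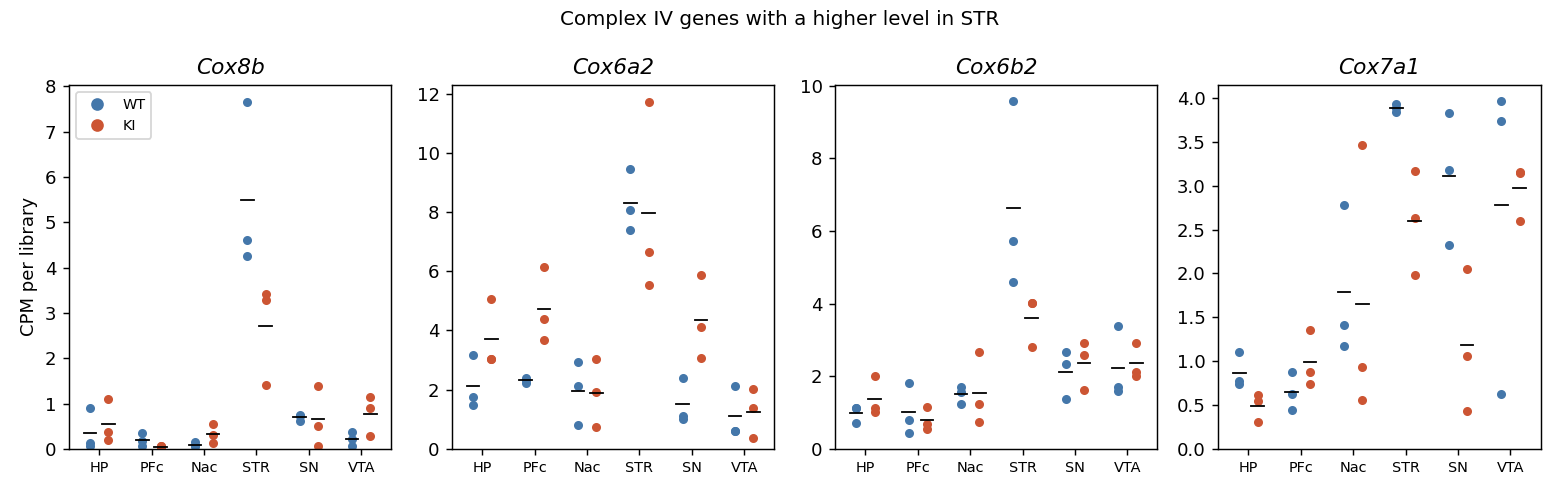
CPM per library of 4 complex IV genes in 6 regions; points are libraries, coloured by genotype, and bars are means of 3. The 3 WT STR libraries lie above all other WT libraries for Cox8b (4.26 to 7.65 CPM), Cox6a2 and Cox6b2, while Cox7a1 in STR overlaps SN and VTA.

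In the 18 KI libraries, 4 of 83 genes differed between regions, against 12.6% of all genes tested, and DESeq2 called 15. The edgeR count was 14 without the KI libraries numbered 1, 0 without those numbered 2 or 3, and 40 without the 6 KI libraries of other markers, where 50.5% of all genes were called. The fourth gene was Ndufb5, of the distal membrane arm of complex I (adjusted p = 0.0495). KI VTA had the highest levels of the study: 34 genes rose against the other 5 regions, against 8.45% of all genes tested, and 1 fell, against 10.8%. The median was 0.45 against -0.02 over all genes. The called genes included 9 of 17 in complex V, 13 of 36 in I, 6 of 18 in IV, 3 of 4 in II and 3 of 8 in III. Ndufb5 was at 225 to 232 CPM in KI VTA and at 122 to 128 CPM in KI HP, a difference from the other regions of 0.65 (SE 0.14, adjusted p = 0.012). Cox5a, a matrix-side subunit of complex IV, differed by 0.75 (SE 0.17) and Atp5g3 by 0.61 (SE 0.15). Cox6a2 was the gene that fell, by -1.71 (SE 0.47, adjusted p = 0.0246). With the KI libraries numbered 2, or those numbered 3, left out, 0 genes were called. There were 58 without those numbered 1, and 63 (62 higher) without the 6 KI libraries of other markers, where 20.4% of all genes rose. With the gene length offset described below, 18 genes rose and 3 fell, with a median of 0.16, against 9% and 10.7% of all genes. The 7 oligodendrocyte markers summed to 15600 to 23820 CPM in KI VTA and 8255 to 11890 CPM in WT VTA, and their part in the result was not tested. In tissue RNA a change in the number of cells of a type and a change in RNA per cell cannot be told apart.

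Levels of the family moved with the length of the genes that each library covered. The 85 genes are short, with a median effective length of 429 bases against 2706 bases over the genes tested in WT. For each library the median of the 76 abundant genes was taken relative to their mean over all libraries, beside the gene length below which lay the lower 50 percent of its counts. In WT PFc 1 that length was 3348 bases, the longest of the 36, and the family's median deviation was -0.64, the lowest. In KI Nac 1 the length was 2526 bases, the shortest, and the deviation was 0.42. KI VTA 1, 2 and 3 had lengths of 2602, 2568 and 2549 bases and deviations of 0.46, 0.43 and 0.52. The 3 WT HP libraries had lengths of 2997, 3176 and 3256 bases and deviations of -0.07, -0.37 and -0.40. This is a description over libraries that share genes and normalisation.

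**Figure D3:**
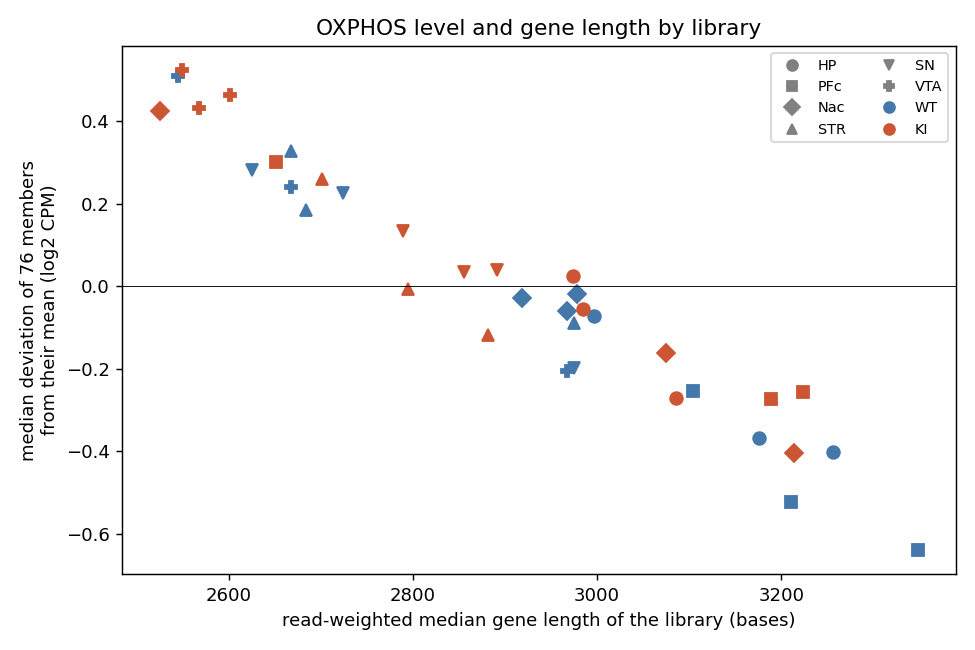
Each point is a library: the gene length at which its counts are split evenly (x axis, bases) against the median deviation of the 76 abundant genes from their means (y axis, log2 CPM). Libraries with short genes, such as KI VTA (2549 to 2602 bases), lie high, and WT PFc (3104 to 3348 bases) lies low.

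Genes outside the family were then set beside it by length. In WT PFc against the other regions, the median difference was -0.42 for the 344 genes outside the family under 500 bases and 0.24 for the 4117 over 4000 bases. The 47 family genes under 500 bases had a median of -0.55, and the 4 family genes of 2000 to 4000 bases had -0.17, where the 5889 others had 0.004. In WT VTA the 344 short genes outside the family had a median of 0.35 and the 47 family genes 0.36. A fit with an offset that takes out, per library, a smooth trend of level on gene length was added after these data were seen. It gave 19 genes that differed between WT regions in place of 48, against 49.6% of all genes. It gave 13 in PFc (11 lower, median -0.12) and 8 in HP (4 lower, median -0.02). In STR it gave 12 (11 higher, median 0.05), and in VTA 4 (1 higher, median 0.01). Over all genes, 11.9% were called lower in PFc and 17.3% in HP, and 13.6% were called higher in STR and 5.09% in VTA. The counts of the family are thus near the background or below it. Under the offset, Sdhc in PFc differed by -0.29 (adjusted p = 0.00252) and Ndufa3 by -0.16 (0.35). Cox8b, Cox6b2 and Cox6a2 in STR kept 4.12, 1.97 and 2.07, all at adjusted p-values of 0.000833 or below, while the call of Cox7a1 was lost (adjusted p = 0.0527).

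The second question was whether the KI libraries differ from WT. By edgeR's quasi-likelihood test, 0 family genes passed an adjusted p under 0.05 in any region, and 0 of all genes did (0%). In PFc the difference was widest. There 78 of the 82 tested genes were higher in KI, with a median log2 fold change of 0.45 against 0.03 over all 14167 genes. At an unadjusted p under 0.05 were 39 of the 82, against 18.1% of all genes. In 35 genes every KI library lay above every WT library, against 12.3% of all genes, and in 2 every KI library lay below, against 16.2%. DESeq2 called 6 genes higher and 0 lower, against 1.68% of all genes called higher: Cox8a, Cox6a1, Cox6c, Atp5k, Cox6a2 and Cox7c.

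Among these 6, Cox8a was at 265 to 350 CPM in WT PFc and at 409 to 583 CPM in KI PFc, and the groups did not overlap. Its log2 fold change was 0.73 (SE 0.18, edgeR adjusted p = 0.208, DESeq2 adjusted p = 0.0216). Cox6a1 was at 215 to 269 CPM in WT and 314 to 540 CPM in KI, also apart, with 0.82 (SE 0.22). Cox6c was at 160, 231 and 190 CPM in WT and at 385, 273 and 292 CPM in KI, with 0.73 (SE 0.19). Atp5k, a small subunit of the ATP synthase membrane part, was at 37.8 to 50.2 CPM in WT and 61.4 to 88.1 CPM in KI, with 0.71 (SE 0.18). Cox7c had 0.62 (SE 0.17) and Cox6a2 1.05 (SE 0.25). In each of the first 3, KI PFc 1 had the highest value.

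The highest values by complex in PFc were 0.78 (SE 0.24) for Ndufa2 in complex I, 0.40 (SE 0.13) for Sdhc in II, 0.68 (SE 0.22) for Uqcr11 in III, 1.08 (SE 0.26) for Cox4i2 in IV and 0.71 for Atp5k in V. The lowest were those of large catalytic or core proteins in 4 complexes: -0.18 (SE 0.10) for Ndufs1, the largest subunit of the N module, 0.03 (SE 0.11) for Sdha, -0.22 (SE 0.12) for Uqcrc2, a core protein of complex III, and -0.02 (SE 0.11) for Atp5a1, the alpha subunit of complex V. In complex IV the lowest was Cox6b2 at -0.32 (SE 0.56). The 64 tested genes under 1000 bases had a median of 0.49 and the 18 longer genes 0.15. All tested genes showed the same order: 0.48 for the 353 genes under 500 bases, 0.31 for 500 to 1000 bases, 0.16 for 1000 to 2000 bases, -0.003 for 2000 to 4000 bases and -0.18 for those over 4000 bases. The family's medians in the first 4 classes were 0.55, 0.40, 0.16 and 0.00. With the length offset the family's median in PFc was 0.01, and Cox8a had 0.24 and Atp5k -0.06.

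**Figure D4:**
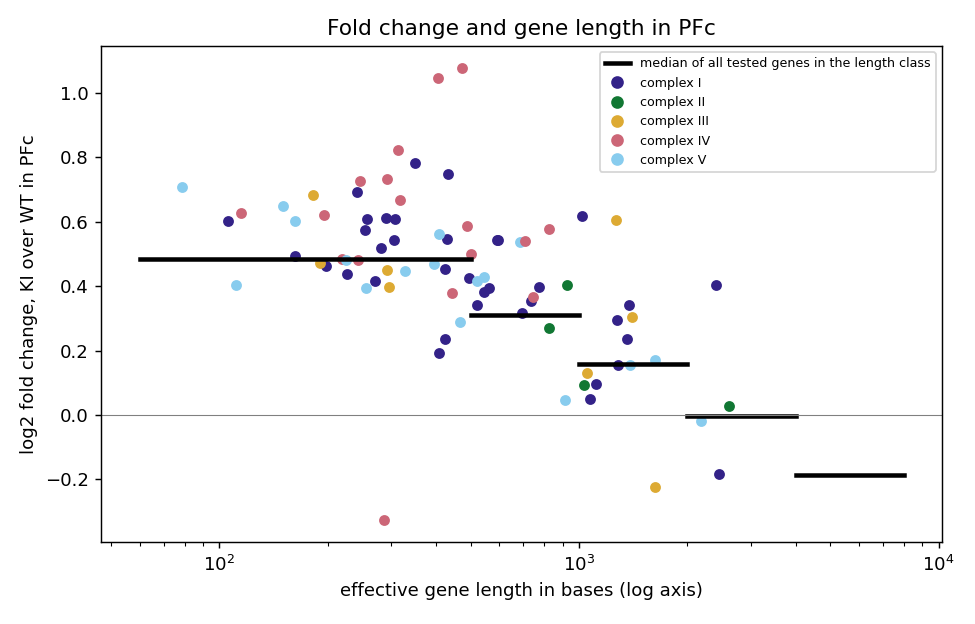
Log2 fold change of KI over WT in PFc (y axis) against effective gene length in bases (log axis) for the 82 tested family genes, coloured by complex. Black lines are medians of all tested genes in 5 length classes, from 0.48 under 500 bases to -0.18 over 4000 bases, and the family's medians in the first 4 classes are 0.55, 0.40, 0.16 and 0.00.

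Without KI PFc 1 the median was 0.24 and 1 gene was called. The 7 oligodendrocyte markers summed to 12420 CPM in KI PFc 1, against 2177 to 4063 CPM in the other 5 PFc libraries. The 8 microglial markers summed to 826 to 1006 CPM in KI PFc and 477 to 686 CPM in WT PFc. All 8 astrocyte markers were higher in KI PFc, with a median of 0.43, and 4 of the 8 had every KI above every WT library. The cytosolic ribosomal protein genes, another set of short and abundant genes, had a median of 0.63 in PFc, and 84 of 84 tested were higher. The part of these cells and of gene length in the PFc values was not tested beyond the offset.

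In HP, 72 of 82 genes were higher in KI, with a median of 0.18 against 0.00 over all genes. At an unadjusted p under 0.05 were 10, against 14.2% of all genes. Every KI library lay above every WT library in 11 (11.9% of all genes) and below in 1, Cox7a1 (12%), and DESeq2 called 0 of the family higher (1.75% of all genes). These counts are near the background. Cox7a2l was at 188, 150 and 138 CPM in WT HP and at 208, 240 and 270 CPM in KI HP, which did not overlap, with a log2 fold change of 0.60 (SE 0.16, edgeR adjusted p = 0.304). The highest values by complex were 0.45 (SE 0.13) for Ndufa1, 0.34 (SE 0.13) for Sdhc, 0.33 (SE 0.15) for Uqcr11, 0.80 (SE 0.38) for Cox6a2 and 0.36 (SE 0.14) for Atp5g2, and Cox7a1 was lowest at -0.83 (SE 0.40). The 7 oligodendrocyte markers summed to 5697 to 9751 CPM in KI HP and 2131 to 2856 CPM in WT HP, and their part was not tested. Without KI HP 2 the median was 0.26, and with the length offset it was -0.05.

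In VTA, 81 of 82 genes were higher in KI, with a median of 0.22 against -0.01 over all genes, but 4 reached an unadjusted p under 0.05, against 13.0% of all genes. Every KI library lay above every WT library in 5 (11.3% of all genes) and below in 0 (12.1%), and DESeq2 called 0 higher (0.812%). Atp5l, a small membrane subunit of complex V, was at 154 to 215 CPM in WT VTA and 234 to 267 CPM in KI VTA, apart, with 0.47 (SE 0.15, edgeR adjusted p = 0.371). The highest values in the other complexes were 0.44 (SE 0.16) for Ndufb9, 0.29 (SE 0.15) for Sdhc, 0.34 (SE 0.21) for Uqcrh and 0.44 (SE 0.22) for Cox6c. Without WT VTA 3 the median was 0.06 and 0 genes of the family were called, against 5.72% of all genes. With the length offset it was also 0.06.

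In STR the family was lower in KI: 63 of 83 genes, with a median of -0.11 against 0.01 over all genes. At an unadjusted p under 0.05 were 7, against 10.8% of all genes, and DESeq2 called 0 higher (0.869%). Every KI library lay below every WT library in 11 genes (9.54% of all genes) and above in 0 (8.13%). Among the 11 were Ndufa10 at -0.39 (SE 0.11, edgeR adjusted p = 0.326), Atp5g1 at -0.43 (SE 0.13), Cox8b at -1.01 (SE 0.38) and Uqcrc2 at -0.22 (SE 0.11). Ndufa10, of the proximal membrane arm, was at 185 to 197 CPM in WT STR and 132 to 153 CPM in KI STR, and Atp5g1 at 208, 206 and 158 CPM against 141, 138 and 143 CPM. In complex II, Sdhb was lowest at -0.14 (SE 0.14). The length classes of all genes were nearly level here (0.00 under 500 bases and 0.07 over 4000), and the offset gave a median of -0.12. It was -0.21 without KI STR 3 and -0.01 without WT STR 1. The citric acid cycle genes, 12 of 13 lower, had a median of -0.21, and 9 of them had every KI below every WT library.

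In SN, 52 of 83 genes were lower in KI, with a median of -0.05 against 0.02 over all genes. Of the 83, 3 reached an unadjusted p under 0.05, against 17.6% of all genes. Cox6a2 was the 1 gene that DESeq2 called higher (3.46% of all genes) and the 1 with every KI above every WT library (11.2%). It was at 1, 2.4 and 1.11 CPM in WT SN and at 4.1, 5.89 and 3.08 CPM in KI SN, with 1.53 (SE 0.43, edgeR adjusted p = 0.16). Every KI library lay below every WT library in 5 genes (12.7% of all genes), among them Cox7a1 at -1.39 (SE 0.53), Ndufb4c at -0.55 (SE 0.18) and Uqcrc1, the other core protein of complex III, at -0.27 (SE 0.16). KI SN 1 and KI SN 2 did not carry the midbrain markers: Slc6a3, the dopamine transporter, was at 1.19 and 0.806 CPM there and at 258 to 1076 CPM in WT SN. Without both, the median was 0.00.

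In Nac the family showed the least difference, with 48 of 82 genes higher and a median of 0.02, equal to that over all genes at this precision. None reached an unadjusted p under 0.05 (1.02% of all genes), by edgeR, DESeq2 called 0 higher (0.00561%), and in 0 genes did the groups separate in either direction (2.53% higher and 1.67% lower over all genes). The values ran from -0.30 (SE 0.25) for Ndufb4 to 0.49 (SE 0.35) for Ndufa4l2. The KI Nac libraries were far apart: Cox6c was at 462, 217 and 255 CPM in KI Nac 1, 2 and 3, against 238 to 296 CPM in WT Nac. KI Nac 1 was highest in midbrain markers and KI Nac 2 in hippocampal ones. The part of this in the spread was not tested. Without KI Nac 1 the median was -0.26, and without KI Nac 2 it was 0.19. With the 3 Nac libraries of other markers left out it was -0.13.

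**Figure D5:**
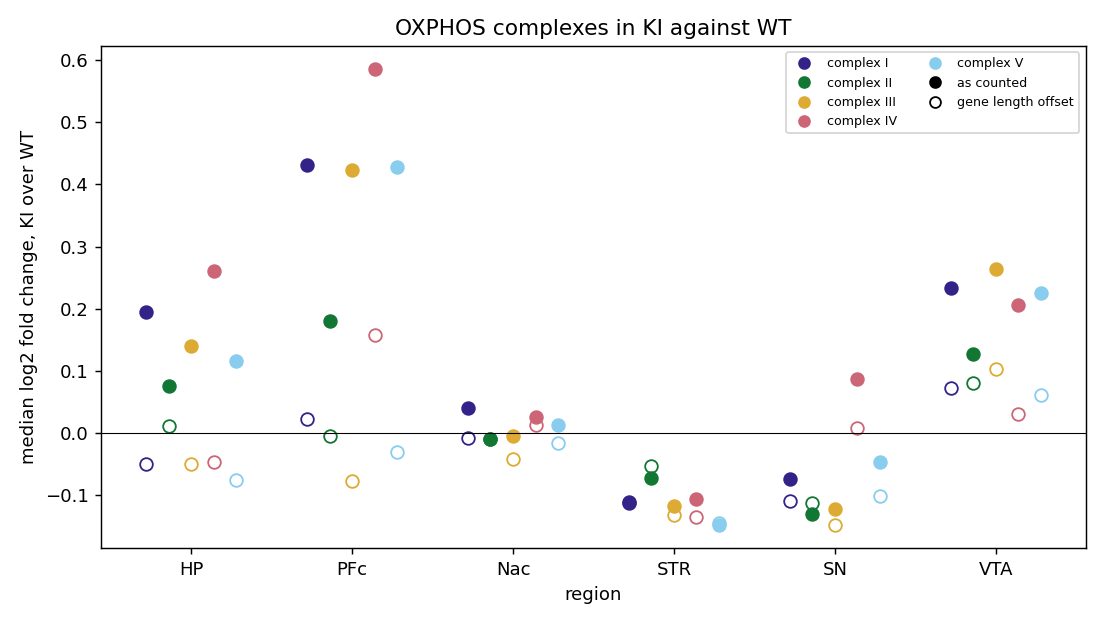
Median log2 fold change of KI over WT for the tested genes of each complex (colour) in each region. Filled points are counts as deposited and open points are fits with the gene length offset, which bring PFc from 0.43 (complex I) and 0.59 (complex IV) to 0.02 and 0.16, and leave STR below 0.

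Libraries of the same genotype and title number were then added up across the 6 regions, which left 3 sums per genotype. Of 84 tested genes, 60 were higher in KI, with a median of 0.08 against -0.004 over all genes. By edgeR 0 of the family and 0% of all genes passed the threshold, and 8 of the 84 had an unadjusted p under 0.05, against 19.9% of all genes. Every KI sum lay above every WT sum in 5 genes (11.9% of all genes) and below in 1 (14.4%). Cox7a2l had the smallest p, with a log2 fold change of 0.36 (SE 0.08, edgeR adjusted p = 0.0878), and was the 1 gene DESeq2 called higher (adjusted p = 0.00308, against 4.18% of all genes). With the length offset it was 0.28 (edgeR adjusted p = 0.0467). No other family gene was called in that fit, where 1.45% of all genes rose and 1.26% fell. Ndufb9 had 0.35 (SE 0.11), Cox6a2 0.45 (SE 0.17), Ndufa1 0.26 (SE 0.10) and Atp5k 0.24 (SE 0.10), while Cox8b had the lowest value at -0.48 (SE 0.30).

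Cox7a2l was higher in KI in 6 of 6 regions. From the highest to the lowest, its log2 fold change was 0.60 in HP, 0.58 in PFc, 0.37 in VTA, 0.34 in SN, 0.25 in Nac and 0.19 in STR, and the libraries did not overlap in HP, PFc and VTA. In Nac it was -0.05 without KI Nac 1. In PFc it was at 127, 181 and 153 CPM in WT and at 259, 202 and 217 CPM in KI. In STR, where the groups overlapped, it was at 220, 198 and 154 CPM in WT and at 196, 186 and 263 CPM in KI. Of 82 family genes tested in all 6 regions, 9 were higher in all 6 (11%), against 7.69% of all genes, and 0 were lower in all 6. With region as a term over all 36 libraries, 5 of 83 genes were called higher, against 4.92% of all genes, which is near the share in the family: Cox7a2l at 0.38 (SE 0.08, adjusted p = 0.00559), Ndufb9, Cox6c, Ndufa1 and Ndufb3. Without the 8 libraries of other markers, Cox7a2l kept 0.37 (SE 0.09, adjusted p = 0.00583), and Sdhc, Cox6c and Ndufb9 were called higher, against 9.04% of all genes, and Uqcrc2 lower, against 7.66%. These 2 fits treat the regions of a number as independent.

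The third question was whether the KI difference differs between regions. In the test of genotype by region over all 36 libraries, edgeR called 0 of 83 genes (0% of all genes tested) and DESeq2 called 0. Without the 8 libraries of other markers edgeR also called 0. No share over all genes is given for DESeq2 here or for the fit without those 8. At an unadjusted p under 0.05 was 1 gene, Atp5g1 (adjusted p = 0.563), whose log2 fold change was -0.43 in STR. No gene of the family thus passed the test of a difference between regions, PFc and STR included.

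Other genes of the pathway were read from lists of known members. The shares below stand against the 48.0% of all genes that differed between WT regions. Of 46 assembly factors, which build the complexes without staying in them, 45 were tested in WT and 9 differed between regions, among them Ttc19 (complex III), Surf1 (complex IV) and Atpaf1 (complex V). Against WT, 33 of 45 were higher in KI PFc, with a median of 0.18, and 0 were called by edgeR. Of the 13 citric acid cycle genes, 2 differed between WT regions, Suclg1 and Suclg2, which encode subunits of succinyl-CoA ligase. Of 11 regulators of mitochondrial gene expression, 4 did: Esrra, Yy1, Tfb1m and Tfb2m. Nrf1 (adjusted p = 0.591) and Gabpa (0.511), the genes of factors that bind the first 2 motifs above, did not pass. Ppargc1a, a coactivator that raises mitochondrial genes, had -0.48 (SE 0.09, edgeR adjusted p = 0.0665) in the sums of KI against WT. Ndufab1 and Cycs, an acyl carrier subunit of complex I and cytochrome c, lay outside the symbol rule and had -0.10 and 0.03 in the same comparison.

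In the authors' deposited table of DESeq2 comparisons, 4 family genes had q-values under 0.05 for KI against WT in PFc, all higher. There was 1 in SN, Cox6a2, and 0 in HP, Nac, STR and VTA. Over all genes, in either direction, 280 had such a value in PFc, 934 in SN and 185 in HP. In Nac 2 did, in STR 200 and in VTA 154. The smallest q in PFc was that of Cox8a, 0.0284 at a log2 fold change of 0.72. Between WT regions the authors' deposited table listed 42 family genes as higher in VTA than in PFc and 0 as lower. It listed 30 as higher in Nac than in PFc, and 23 as lower in HP than in VTA. Over all genes, in either direction, the numbers in these 3 comparisons were 3990, 2179 and 4618. The table held further comparisons between WT regions. For SN and STR it listed 3 family genes as higher in STR and 0 as lower, with 2358 over all genes. For VTA and SN it listed 0 family genes, with 11 over all genes. For Nac and VTA it listed 0 family genes and 0 over all genes. The numbers over all genes are not split by direction, so no share is set beside the family counts.

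Transcript counts add little for most of the family. The transcript table held 1 transcript for 45 of the 85 genes. Atp5a1, Ndufa7, Ndufs3 and Uqcrc1 had transcripts at a fixed share in every library, so their division carries no information. The widest swing among abundant genes was in Atp5g1, whose transcript NM_007506 held 33.6% to 69.0% of the gene's counts, with a median of 47.4% in WT and 54.2% in KI. In Ndufs1, NM_145518 held 54.2% to 80.0%, with medians of 65.7% and 69.1%. In Ndufa10, NM_024197 held 51.6% to 75.3%, with 65.7% and 64.7%. These shares are estimates and were not tested.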

How the data were processed

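RNA-seq was read from 36 mouse brain libraries. The authors deposited a gene table of estimated counts with TPM and FPKM values, a transcript table and a DESeq2 table with log2 fold changes and q-values, per the file headers. The build was GRCm38.p6 per the submitters' processing notes. For the aligner, quantifier and strand setting: not given in the sources used here. The effective length of a gene was worked out from its deposited count and FPKM value, in the library where its FPKM was highest. The length classes, the lengths per library and the gene length offset rest on it. FPKM values were not used otherwise, and 108 further per-sample columns were left out.

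Estimated counts were rounded (9.88% of gene values were not whole) and tested with edgeR 4.0.16 in R 4.3.3: TMM scaling, filterByExpr, quasi-likelihood test, Benjamini-Hochberg over all genes, threshold 0.05. DESeq2 1.42.0 was an alternative. Others were DESeq2 size factors, no filter, the title number as a block, each replicate left out, 8 libraries of other markers left out, and a gene length offset. The offset was chosen for the comparisons between regions after seeing the data. Scripts were tested on simulated data.

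The named genes were tissue isoforms and their usual counterparts, the Sdh genes, the extremes of each complex in each comparison of KI with WT, the 2 smallest p-values per complex between WT regions, and genes called. The members and lists were chosen with earlier results of these data known. 1 marker gene is not reported here.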

Additional observations from a re-analysis of the deposited data

Results flagged for a closer look

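Atp5a1, the alpha subunit of ATP synthase, had a log2 fold change of KI over WT of 0.10 in HP, where every KI library (1014 to 1055 CPM) lay above every WT library (929 to 999.8 CPM). In STR it was -0.25, and every KI library (878.5 to 946 CPM) lay below every WT library (1059 to 1171 CPM). Cox4i2, the lung form of subunit 4, had 1.08 in PFc, with 2.45 to 3.81 CPM in KI and 1.29 to 1.64 CPM in WT. In STR it had -0.54, with 1.82 to 2.09 CPM in KI and 2.26 to 4.05 CPM in WT. Both were picked out because all libraries of the groups separated in opposite directions in 2 regions. Separation by itself was not rare: over all genes, every KI library lay above every WT library in 11.9% in HP and 12.3% in PFc. In STR every KI library lay below in 9.54%. No share over all genes is given for opposite separation in 2 regions, so the pattern alone does not single out these genes. The KI groups of HP and STR each hold a library of other markers. The difference between the 2 regions of each gene was not tested by itself. In edgeR's test of genotype by region over all 6 regions, the adjusted p was 0.634 for Atp5a1 and 0.584 for Cox4i2.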

How the results depend on the processing

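With the gene length offset, the counts of called genes between WT regions were 19 over all regions, 8 in HP and 13 in PFc. Between KI regions they were 12 over all and 21 in VTA. The shares of all genes called were 49.6%, 37.7%, 25.7%, 16% and 19.7% in the same order. The medians of the offset were -0.02 in WT HP, -0.12 in WT PFc, 0.01 in WT VTA and 0.16 in KI VTA. For KI against WT they were -0.05 in HP and 0.01 in PFc. The offset turned the sign of Uqcr11 in HP (-0.05) and of Atp5k in PFc (-0.06) and in the sums (-0.03). It called 1 gene in the sums, against 2.71% of all genes. Without libraries of other markers the counts were 73 between WT regions, 36 in WT HP, 60 in WT VTA, 40 between KI regions and 63 in KI VTA.

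DESeq2 called 6 genes in KI against WT in PFc, 1 in SN and 1 in the sums, 13 in WT VTA and 15 between KI regions. With no filter 0 were called in WT VTA, and no share over all genes is given for that fit. With region as a term, 5 were called in KI against WT over 36 libraries and 5 without those of other markers, and Cox8b turned to 0.18.

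Leaving out replicates gave 0 to 1 called in KI against WT in PFc, 2 to 55 between WT regions, 0 to 12 in WT HP, 0 to 57 in WT PFc, 3 to 11 in WT STR, 0 to 28 in WT VTA, 0 to 14 between KI regions and 0 to 58 in KI VTA. Cox7a2l in Nac ran from -0.05 to 0.46.

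Of 18 pairs of a WT and a KI library of the same region and number, 4 had deviations correlated above 0.1 (range -0.594 to 0.591). Pairs of different numbers were not set beside them, so these values cannot tell whether the numbers pair WT with KI. Between regions of the same number, 19 of 45 pairs did in WT (range -0.591 to 0.766). In KI 13 of 45 did (range -0.636 to 0.629). Whether the regions of a number share a mouse was not tested. With the number as a replicate block, 10 genes were called in WT VTA and 56 between WT regions, and 0 in KI against WT in each region and in the sums. No share over all genes is given for the fits with this block, so their counts alone do not single out the family. Except where given, the cause of these changes was not tested. Depth (over 15145631 counts) leaves the isoforms under 10 CPM least precise.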
